A study of Mus musculus with 12 samples.

Results

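The cerebral vessels of mice killed 4 h after an injection of lipopolysaccharide (LPS) were compared with those of mice given PBS, using 6 of the 12 RNA-seq libraries of the study: the 3 titled as LPS at 4 hours and the 3 titled as PBS controls. All genes were included. All animals were wild type C57BL6 mice of 2 to 3 months. LPS, the endotoxin of the Gram-negative outer membrane, was injected into the peritoneum at 10 mg/kg; the PBS group received the vehicle by the same route. By the study's records each library was a pool of vessels from 1 male and 1 female mouse, so each group of 3 libraries drew on 6 mice, and a difference between the sexes could not be seen. The vessels came from forebrains freed of meninges after perfusion with PBS, by homogenization, sedimentation in dextran and retention on a nylon mesh. Such a fraction holds whole vessel segments with every cell that stays attached to them. Neither the sample records nor the methods give the time of day, or the interval between the PBS injection and the kill.

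LPS is sensed by Toll-like receptor 4 together with CD14 and MD-2 (encoded by Ly96). The adaptors MyD88 and TRIF pass the signal to NF-kB and to the interferon regulatory factors, and the cytokines and interferons made in response act on further cells through JAK kinases and STAT factors. The endothelium of the brain is known for the blood-brain barrier: tight junctions seal the cells to each other, few vesicles cross them, and a dense set of carriers moves nutrients, a state kept up by Wnt signals from the surrounding tissue. Inflamed endothelium is known to display selectins and integrin ligands that catch leukocytes, and to make prostaglandin E2, a signal of fever.

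Read depth was similar in all libraries. Salmon, which assigns read pairs to transcripts, placed 22521063 to 25641124 fragments in a PBS library and 18309177 to 21109605 in an LPS 4 h library, and the 10 most abundant genes took 7.50 to 7.65% of them in PBS and 11% in each LPS 4 h library. Levels are given as CPM, the fragments of a gene per 1000000 of its library after composition factors of the TMM method, and as mean ± SD over the 3 libraries of a group where single values are not listed. Of 19150 genes with enough fragments to test, 6315 were called different, that is past an adjusted p of 0.05 in edgeR's test against a fold of 1.5. This was 33.0% of the genes tested, 19.1% being higher and 13.9% lower at LPS 4 h, and every count of a gene group given here stands against those shares. The libraries of both groups did not overlap in 70.9% of all genes tested. With 3 libraries against 3, permuting the labels of 1 gene cannot give a p below 0.1, so that each call rests on a spread pooled over genes, and p-values measure the spread between these pooled libraries. That spread was small: between any 2 libraries of a group, squared differences in fragments had a median over genes of 2.21 to 2.87 times what counting alone gives. That the libraries of a group came from separate mice is taken from the records and was not tested.

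The called genes differed in size and in weight. At least 16-fold rises numbered 424 and at least 16-fold falls 67; 170 genes rose and 21 fell by 64-fold or more, genes with no fragment in one group included, whose fitted change depends on a small added count. By their choice the called genes gain or lose weight, and the amount is given as a description. The genes called higher held 26.7, 26.7 and 26.7% of all gene fragments in PBS and 61.1, 61.2 and 61.1% at LPS 4 h. The genes called lower held 18.9 ± 0.0579% in PBS and 4.83 ± 0.0346% at LPS 4 h. The 424 genes with the 16-fold rises alone went from 0.522 ± 0.00115% to 15.9 ± 0.0476%. A shift of this weight bears on the scale of every fold change: scaled by library size alone all log2 fold changes stood 0.70 lower in the median, with 1919 genes higher and 8604 lower, and scaled on the RT-qPCR reference genes Actb, Gapdh and Rplp0 they stood 0.92 lower. Those reference genes were themselves higher on the TMM scale, by 1.43, 0.66 and 0.69. Changes given here are on the TMM scale, where the median of all genes was -0.0098.

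**Figure D1:**
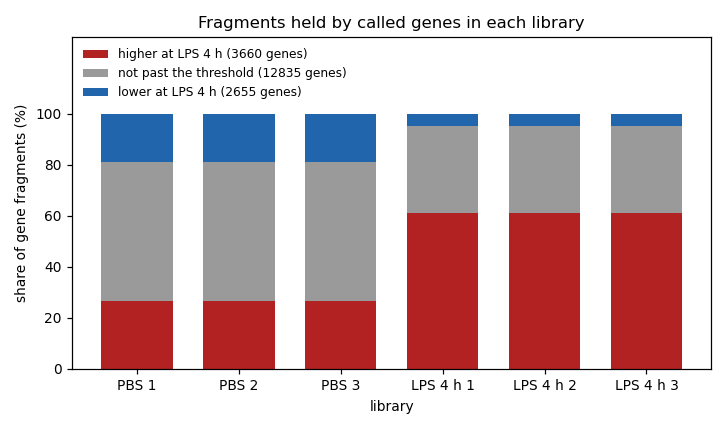
Share of all gene fragments (%, vertical axis) in each of the 3 PBS and 3 LPS 4 h libraries held by the 3660 genes called higher at LPS 4 h, the 2655 called lower and the 12835 not past the threshold. The genes called higher took 26.7% on average in PBS and 61.1% at LPS 4 h; the sets were chosen for these directions in the same libraries.

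**Figure D2:**
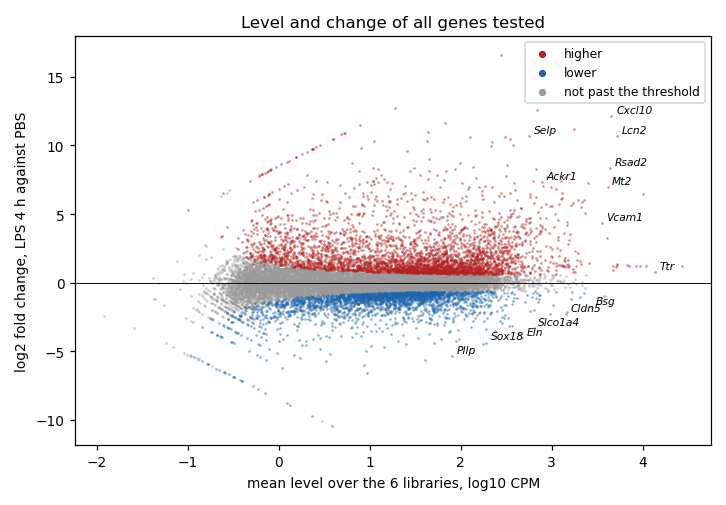
Log2 fold change of LPS 4 h against PBS (vertical axis) by the mean level over the 6 libraries (log10 CPM, horizontal axis), one point per gene tested. Rises reached well past 10 on the log2 scale and falls seldom passed 5; the diagonal streaks at low levels are genes with few or no fragments in one group, whose fitted change depends on a small added count, and 9 genes at 0 in both groups are not drawn.

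The stretch of DNA before a gene's start holds sites for the factors named above, and the windows of 5 genes with large changes are shown for that reason. They are the 250 bases before the RefSeq start nearest to the main transcript, in GRCm38.p6, 5′ to 3′ on the strand of the gene. Capitals mark matches on either strand to an NF-kB-like pattern (GGG, any 2 bases, then TTTCC or TTCCC), to an ISRE-like pattern (GAAA, any 2 bases, then GAAA again), the element bound by interferon-activated factors, and to a GAS-like pattern (TTCNNNGAA), an element of genes that interferon gamma induces; matches may overlap. Cxcl1, a neutrophil chemokine, is read at chr5:90890995-90891244 (plus strand); Nfkb2, an NF-kB subunit gene, at chr19:46304487-46304736 (plus); Cxcl10, a chemokine for activated lymphocytes, at chr5:92348890-92349139 (minus); Gbp5, an interferon-inducible GTPase gene, at chr3:142496684-142496933 (plus); and Isg15, a ubiquitin-like modifier gene, at chr4:156200819-156201068 (minus).
Cxcl1: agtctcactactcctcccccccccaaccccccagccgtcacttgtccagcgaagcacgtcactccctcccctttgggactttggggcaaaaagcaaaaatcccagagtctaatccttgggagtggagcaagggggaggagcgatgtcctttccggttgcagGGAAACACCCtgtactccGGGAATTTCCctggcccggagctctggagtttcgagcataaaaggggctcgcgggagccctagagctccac
Nfkb2: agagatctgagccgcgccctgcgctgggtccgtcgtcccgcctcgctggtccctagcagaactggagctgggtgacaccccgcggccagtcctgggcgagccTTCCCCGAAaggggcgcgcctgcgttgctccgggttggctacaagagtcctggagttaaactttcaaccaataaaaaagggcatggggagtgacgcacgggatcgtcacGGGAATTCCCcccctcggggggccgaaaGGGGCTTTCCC
Cxcl10: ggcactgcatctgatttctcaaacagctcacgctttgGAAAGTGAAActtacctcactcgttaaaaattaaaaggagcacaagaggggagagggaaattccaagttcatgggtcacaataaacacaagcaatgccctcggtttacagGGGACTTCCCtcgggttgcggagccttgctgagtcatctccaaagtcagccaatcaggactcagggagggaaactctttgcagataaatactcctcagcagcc
Gbp5: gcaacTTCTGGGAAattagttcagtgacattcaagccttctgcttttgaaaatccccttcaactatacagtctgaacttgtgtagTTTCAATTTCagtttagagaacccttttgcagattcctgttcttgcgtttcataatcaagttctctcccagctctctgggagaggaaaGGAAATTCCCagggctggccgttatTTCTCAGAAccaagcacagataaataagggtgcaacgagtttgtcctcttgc
Isg15: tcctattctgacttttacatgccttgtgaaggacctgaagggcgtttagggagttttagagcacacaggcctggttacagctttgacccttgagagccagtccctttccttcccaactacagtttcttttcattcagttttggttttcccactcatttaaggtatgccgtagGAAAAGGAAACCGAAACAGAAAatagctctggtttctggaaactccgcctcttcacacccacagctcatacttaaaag
The Cxcl1 window held 2 NF-kB-like matches, the nearer one 71 to 62 bases before the start. Nfkb2 held 3 such matches, 2 of which overlap and end next to the start, and a GAS-like match. In the Cxcl10 window an ISRE-like match stood 213 to 204 bases and an NF-kB-like match 103 to 94 bases before the start. Gbp5 held 1 ISRE-like, 1 NF-kB-like and 2 GAS-like matches. Isg15 held 3 overlapping ISRE-like matches between 78 and 57 bases before the start and none of the other patterns.

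Over the 11280 tested genes with a RefSeq window within 1000 bases of their main start, the share of windows with a pattern was set against the size of the change. The NF-kB-like pattern stood in 16.5% of the windows of the 97 genes that rose by 6 or more on the log2 scale, in 10.1% from 4 to 6 (159 genes), in 6.34% from 2 to 4 (552 genes), in 4.08% of smaller rises (1420 genes), in 3.05% of genes not past the threshold and in 2.26% of genes that fell, against 3.44% of all of them. The ISRE-like pattern was commonest from 4 to 6, with 18.9%, and stood in 12.4% of the largest rises, 1.78% of falls and 2.81% of all. The GAS-like pattern went from 4.93% of falls to 13.4% of the largest rises, against 5.79% of all. The TATA pattern (TATAAA) stood in 28.9% of the largest rises and 7.12% of all genes, and the median of CpG per 100 bases was 1.2 in the former and 6.0 in the latter. In all 32851 windows of the RefSeq table, tested gene or not, the shares were 2.82% (NF-kB-like), 2.98% (ISRE-like), 7.02% (GAS-like) and 12.4% (TATA). By gene group, the ISRE-like pattern stood in 17 of 36 windows of interferon-stimulated genes and 8 of 9 of interferon-inducible GTPases, the NF-kB-like pattern in 3 of 5 neutrophil chemokine windows and 6 of 16 of the MHC class I pathway, and none of these in the 20 windows of blood-brain barrier transporters. A match says that these letters are there, not that a factor binds them, and the groups of genes differ in base composition too.

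**Figure D3:**
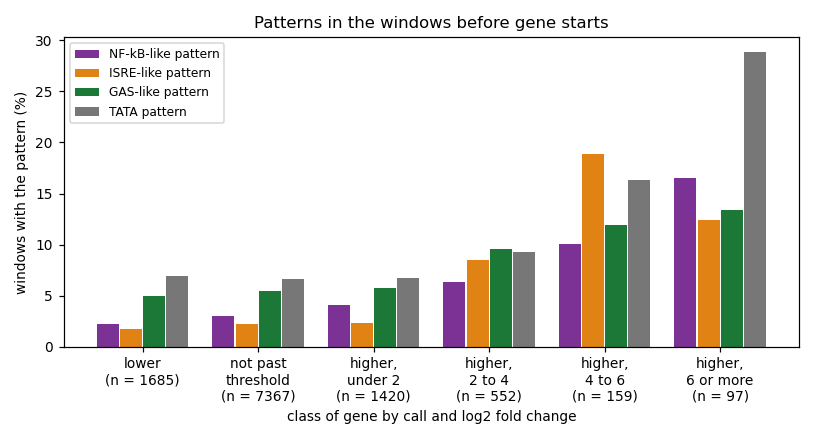
Share of windows (%, vertical axis) that hold each of 4 sequence patterns in the 250 bases before the start, for genes that fell, were not past the threshold, or rose by the log2 fold change given (horizontal axis, with the number of windows). The NF-kB-like bar grows from 2.26% to 16.5% and the ISRE-like bar peaks at 18.9% in the class from 4 to 6.

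Genes of the receptors and adaptors that sense LPS were in part higher at 4 h. Of 22 genes tested of the LPS receptor complex and the Toll-like receptors, 15 rose (under library size alone, 10 rose and 3 fell). Cd14 (chr18:36725067-36726798, minus strand), which hands LPS to the receptor, had 4.38, 4.32 and 4.01 CPM in PBS and 1353, 1315 and 1383 CPM at LPS 4 h (log2 fold change 8.31, SE 0.0603, edgeR adjusted p 3.61e-30). Tlr4, the receptor itself, had 6.48, 5.36 and 5.65 CPM in PBS and 40.9, 36.6 and 38.4 CPM at LPS 4 h (log2 fold change 2.73, SE 0.121), while its partner Ly96 went from 2.54 ± 0.260 to 3.68 ± 1.28 CPM and was not past the threshold. The LPS 4 h libraries of Cd14 and Tlr4 all lay above those of PBS. Tlr2, which binds bacterial lipoproteins, rose from 7.64 ± 0.773 to 453 ± 3.99 CPM (log2 fold change 5.89, SE 0.0607) and Tlr3, which binds double-stranded RNA, from 27.5 ± 1.41 to 403 ± 0.695 CPM (log2 fold change 3.87, SE 0.0418). The adaptor gene Myd88 rose (log2 fold change 3.48, SE 0.0396), as did Irak2 (log2 fold change 3.18, SE 0.0360), a kinase downstream of it, and Irak3 (log2 fold change 3.83, SE 0.0650), which restrains that pathway. Irak1 and Irak4, the kinases that act first, were not past the threshold, with -0.24 and -0.20.

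NF-kB genes rose on both sides of the pathway, the factors and their inhibitors. Among 14 genes of subunits and kinases 11 rose. Rel, the subunit c-Rel, had 6.41, 7.49 and 7.10 CPM in PBS and 136, 137 and 141 CPM at LPS 4 h (log2 fold change 4.30, SE 0.0628), and the other subunit genes Nfkb1, Nfkb2, Rela and Relb rose by 2.55, 3.74, 2.61 and 3.64. Ikbkb and Ikbkg, of the kinase complex that releases NF-kB, were not past the threshold, with 0.57 and -0.077, whereas the noncanonical kinase gene Ikbke rose by 3.47. Of 18 genes of inhibitors and of factors that destroy cytokine mRNA, 14 rose and 1 fell. Tnfaip3, the ubiquitin-editing inhibitor A20, had 14.4, 15.1 and 15.8 CPM in PBS and 1143, 1137 and 1130.0 CPM at LPS 4 h (log2 fold change 6.23, SE 0.0406, edgeR adjusted p 6.56e-31), Nfkbiz rose by 5.29, Nfkbie by 4.59 and Tnip1 by 4.76. Zfp36 (tristetraprolin) and Zc3h12a (regnase-1), which mark cytokine mRNA for decay, rose by 4.48 and 4.04; Zfp36l2, of the family of Zfp36, fell by 0.73.

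The cytokine receptor pathways showed the same pairing. Of 19 JAK, STAT and SOCS genes 13 rose and 1 fell (under library size alone, 11 rose and 4 fell). Socs3, which shuts off signals of the interleukin 6 receptor, had 11.7, 13.7 and 12.6 CPM in PBS and 1158, 1119 and 1114 CPM at LPS 4 h (log2 fold change 6.48, SE 0.0572, edgeR adjusted p 1.22e-28). Socs1, the brake on interferon receptors, went from 4.47 ± 0.194 to 97.2 ± 2.40 CPM (log2 fold change 4.44, SE 0.0845). Stat2 and Stat3 rose by 2.86 and 2.73 and Jak2 by 2.53, while Tyk2, Stat5b and Stat6 were not past the threshold (-0.31, -0.45 and -0.23). The gene called lower in this group, Socs7, is uncertain: it had 12.1 ± 13.1 CPM in PBS and 0.774 ± 0.0437 CPM at LPS 4 h in summed fragments, but was higher by 1.75 on the log2 scale in the length-corrected table of the study. Of 9 interferon regulatory factor genes 7 rose: Irf7, the factor that amplifies type I interferon, had 61.4, 63.6 and 61.2 CPM in PBS and 1669.6, 1627 and 1657 CPM at LPS 4 h (log2 fold change 4.73, SE 0.0365), Irf1 rose by 3.36 and Irf5 by 2.90. Irf3, which is activated as a protein already present, was at 85.6 ± 2.31 CPM in PBS and 88.8 ± 4.78 CPM at LPS 4 h and not past the threshold.

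Chemokine genes for neutrophils, monocytes and lymphocytes rose in large part, with rises of at least 1024-fold among them. Of 6 genes of the neutrophil-attracting CXC group tested, 5 rose (under library size alone, 4 rose and 1 fell). Cxcl1 had 0.862, 2.13 and 1.30 CPM in PBS and 3512, 3449 and 3484 CPM at LPS 4 h (log2 fold change 11.22, SE 0.0740, edgeR adjusted p 6.09e-31). Cxcl5 went from 0.112 ± 0.0768 to 18.4 ± 1.81 CPM (log2 fold change 7.32, SE 0.328). Cxcl3 had no fragment in any PBS library and 3.08 CPM at LPS 4 h, at least 84.6-fold higher when 3 fragments over the group are taken as the floor. The group's median log2 fold change was 8.23, or 6.86 with Cxcl3 at that bound. Of the platelet chemokine genes in the group, Pf4 was the smallest of the 5 rises and Ppbp was not past the threshold (-0.21). Of 17 CC chemokine genes 14 rose, with a median of 5.85. Ccl2 (chr11:82035571-82037453, plus strand), which draws monocytes, had 0.562, 0.337 and 0.573 CPM in PBS and 685, 696 and 686 CPM at LPS 4 h (log2 fold change 10.46, SE 0.0815, edgeR adjusted p 1.28e-29). Ccl5 rose from 0.728 ± 0.298 to 129 ± 5.42 CPM (log2 fold change 7.48, SE 0.116), Ccl4 from 0.169 ± 0.0824 to 89.0 ± 0.0519 CPM (log2 fold change 8.99, SE 0.174) and Ccl20, a chemokine for Th17 and dendritic cells, from 0.146 ± 0.00952 to 28.9 ± 1.97 CPM (log2 fold change 7.58, SE 0.258). In the third group 5 of 7 genes rose and 1 fell. Of the genes for ligands of CXCR3 on activated T cells, Cxcl9 rose to 251 CPM (log2 fold change 10.59, SE 0.124, and 11.37 without PBS 3). Cxcl11 rose to 271 CPM (log2 fold change 8.4, SE 0.0970). The annotation lists Cxcl11 as a polymorphic pseudogene, and whether its transcript gives a working ligand was not tested. Cxcl12, which retains leukocytes at the abluminal side of brain vessels, fell from 663 ± 2.32 to 73.3 ± 0.779 CPM (log2 fold change -3.18, SE 0.0264).

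Of 26 cytokine and growth factor genes 19 rose, the median being 5.09. Lif, a cytokine of the interleukin 6 family, had 0.450, 0.371 and 0.573 CPM in PBS and 201, 192 and 193 CPM at LPS 4 h (log2 fold change 8.71, SE 0.107). Il1b went from 0.469 ± 0.277 to 136 ± 5.92 CPM (log2 fold change 8.15, SE 0.124), Il1a went from 0.178 ± 0.0815 to 30.5 ± 1.05 CPM (log2 fold change 7.35, SE 0.237), and Tnf had 0.0375, 0 and 0.305 CPM in PBS and 27.4, 27.0 and 24.9 CPM at LPS 4 h, from 1, 0 and 8 fragments in PBS. Csf1, the growth factor of monocytes and microglia, started from a higher level, 80.5 ± 1.69 CPM in PBS and 941 ± 3.36 CPM at LPS 4 h (log2 fold change 3.55, SE 0.0292), as did Tnfsf10 (TRAIL) with 94.5 ± 4.73 CPM in PBS and 718 ± 14.6 CPM at LPS 4 h (log2 fold change 2.92, SE 0.0375). Il12b, a subunit of interleukin 12, had no fragment in PBS and 10.8 CPM at LPS 4 h, at least 297-fold higher. Il10, an anti-inflammatory cytokine gene, also had none and reached 4.08 CPM, at least 112-fold higher. Il1rn, the antagonist of the interleukin 1 receptor, had 0, 1 and 2 fragments in the PBS libraries and 137, 135 and 131 CPM at LPS 4 h. Il33, Il34, Il18 and Kitl, all present in PBS, were not past the threshold. The type I and type II interferon genes Ifnb1 and Ifng and the growth factor gene Csf2 had too few fragments to test, with at most 2, 9 and 15 in any of the 6 libraries.

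Blood leukocytes make several of these transcripts, and their markers were higher at LPS 4 h. All 11 neutrophil marker genes that could be tested rose, their summed level lying between 9.22 and 11 CPM in PBS and between 273 and 275 CPM at LPS 4 h. S100a8 and S100a9, calcium-binding proteins abundant in neutrophils, rose from 0.815 ± 0.355 to 57.3 ± 1.05 CPM and from 1.22 ± 0.0697 to 91.8 ± 3.06 CPM. The granulocyte lineage genes Ly6g, Mpo and Elane were below the filter, with no fragment in PBS. At LPS 4 h the libraries held 2, 9 and 2 fragments of Ly6g, 2, 1 and 1 of Mpo and 2, 0 and 0 of Elane. Of 7 monocyte markers 6 rose, with a summed level between 45.6 and 54.6 CPM in PBS and between 233 and 240.1 CPM at LPS 4 h; Ccr2, the receptor of Ccl2, was not past the threshold (0.38). Among 10 lymphocyte markers 1 rose and 2 fell (under library size alone, 1 rose and 5 fell), the summed level lying between 12 and 12.6 CPM in PBS and between 12.4 and 14.6 CPM at LPS 4 h, and Cd3e, of the T cell receptor complex, fell from 0.610 ± 0.135 to 0.0958 ± 0.0836 CPM (log2 fold change -2.63, SE 0.882), a call that was lost with DESeq2 and without PBS 1 or 3 or any LPS 4 h library, with -3.08 to -2.05 in those fits. The part of these cells in the chemokine and cytokine results was not tested.

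Receptors for these signals rose in part. Of 34 receptor genes 23 rose and 2 fell (under library size alone, 20 rose and 6 fell). Ackr1 (chr1:173331886-173333750, minus strand), the chemokine-carrying receptor of venules, had 10.1, 9.62 and 9.20 CPM in PBS and 1581, 1546 and 1578 CPM at LPS 4 h (log2 fold change 7.34, SE 0.0368, edgeR adjusted p 5.56e-33). Osmr, the oncostatin M receptor, had 82.9, 89.8 and 84.1 CPM in PBS and 1052, 1078 and 1046 CPM at LPS 4 h (log2 fold change 3.63, SE 0.0325). Il4ra went from 35.1 ± 3.02 to 565 ± 6.91 CPM (log2 fold change 4.01, SE 0.0451), Il1r1 from 121 ± 2.41 to 833 ± 3.93 CPM (log2 fold change 2.79, SE 0.0253) and Il6ra from 48.7 ± 0.842 to 332 ± 5.99 CPM (log2 fold change 2.77, SE 0.0347). Among receptor genes for interferon, Ifnar1 stood at 179.9 ± 2.50 CPM in PBS and 156 ± 5.30 CPM at LPS 4 h and Ifngr1 at 69.7 ± 1.64 CPM in PBS and 105 ± 1.68 CPM at LPS 4 h, neither past the threshold, while Ifngr2 rose by 1.14.

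Genes that interferons induce rose without exception among those listed. All 48 interferon-stimulated genes were higher, at a median log2 fold change of 4.65, and all 17 interferon-inducible GTPase genes, with a median of 4.45; both counts were the same when scaled by library size alone or on the reference genes. Rsad2 (viperin, chr12:26442746-26456452, minus strand), which blocks the growth of many viruses, had 26.2, 25.1 and 27.7 CPM in PBS and 8733, 8729 and 8615 CPM at LPS 4 h (log2 fold change 8.37, SE 0.0458, edgeR adjusted p 2.18e-32). Ifit2, which binds foreign RNA, had 21.5, 19.2 and 19.1 CPM in PBS and 2195, 2241 and 2196 CPM at LPS 4 h (log2 fold change 6.79, SE 0.0555). Isg15 had 41.4, 39.9 and 38.6 CPM in PBS and 1004, 988 and 1008 CPM at LPS 4 h (log2 fold change 4.64, SE 0.0381). Cmpk2, the neighbour of Rsad2, rose by 6.15, Zbp1, a sensor of nucleic acid that can trigger cell death, by 6.65, and Mx2, an antiviral GTPase, by 6.34. The smallest rise was that of Trim25 (log2 fold change 1.86, SE 0.0359), from 105 ± 5.40 to 384 ± 11.2 CPM. Gbp2 (chr3:142620602-142638008, plus strand), a GTPase that coats bacteria and vacuoles, had 72.4, 64.3 and 74.9 CPM in PBS and 4431, 4537 and 4466 CPM at LPS 4 h (log2 fold change 5.99, SE 0.0563). Gbp5 went from 72.6 ± 2.33 to 4221 ± 29.4 CPM (log2 fold change 5.86, SE 0.0472) and Irgm1, of the family of smaller GTPases, from 50.3 ± 0.579 to 964 ± 20.1 CPM (log2 fold change 4.26, SE 0.0408). Several of these genes are near copies: 94.2% of the 31-base words of Tgtp1 and 95.1% of those of Gbp6 occur in other genes, so that fragments of these cannot be divided with certainty, whereas Gbp5 shares 0.772% and Rsad2 0.746%.

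The genes listed for the pathway that shows peptides to CD8 T cells were all higher, and the class II chains that show them to CD4 T cells were not past the threshold. All 22 genes of MHC class I presentation and the immunoproteasome were higher (median 2.56; 20 of them under library size alone). Nlrc5, the activator of class I genes, had 22.9, 21.7 and 21.2 CPM in PBS and 690.0, 692 and 707 CPM at LPS 4 h (log2 fold change 4.99, SE 0.0438), and Tap1, a subunit of the peptide transporter, had 52.3, 53.8 and 55.3 CPM in PBS and 1085, 1051 and 1078 CPM at LPS 4 h (log2 fold change 4.32, SE 0.0388). H2-K1, a class I heavy chain, was already abundant, with 695 ± 7.38 CPM in PBS and 3152 ± 27.1 CPM at LPS 4 h (log2 fold change 2.18, SE 0.0224; 23.3% of its words occur in other genes). The immunoproteasome subunits Psmb8, Psmb9 and Psmb10 rose by 3.25, 2.57 and 2.67; the subunits they replace, Psmb5, Psmb6 and Psmb7, were not past the threshold, with 0.13, 0.24 and 0.43. Of 11 genes of class II and costimulation 5 rose and 1 fell (under library size alone, 4 rose and 3 fell). H2-Aa and H2-Eb1, class II chains, went from 22.3 ± 0.758 to 23.3 ± 1.58 CPM and from 21.6 ± 0.445 to 21.2 ± 1.59 CPM, not past the threshold, and Ciita, the activator of class II, fell from 1.95 ± 0.167 to 0.787 ± 0.255 CPM (log2 fold change -1.31, SE 0.330), a call lost with DESeq2 and without LPS 4 h 2 (-1.21) or LPS 4 h 3 (-1.17). Cd274 (PD-L1), which restrains T cells, was the largest rise there, with 16.6, 14.3 and 16.1 CPM in PBS and 1933, 1992 and 1919 CPM at LPS 4 h (log2 fold change 6.96, SE 0.0683, edgeR adjusted p 7.34e-28).

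**Figure D4:**
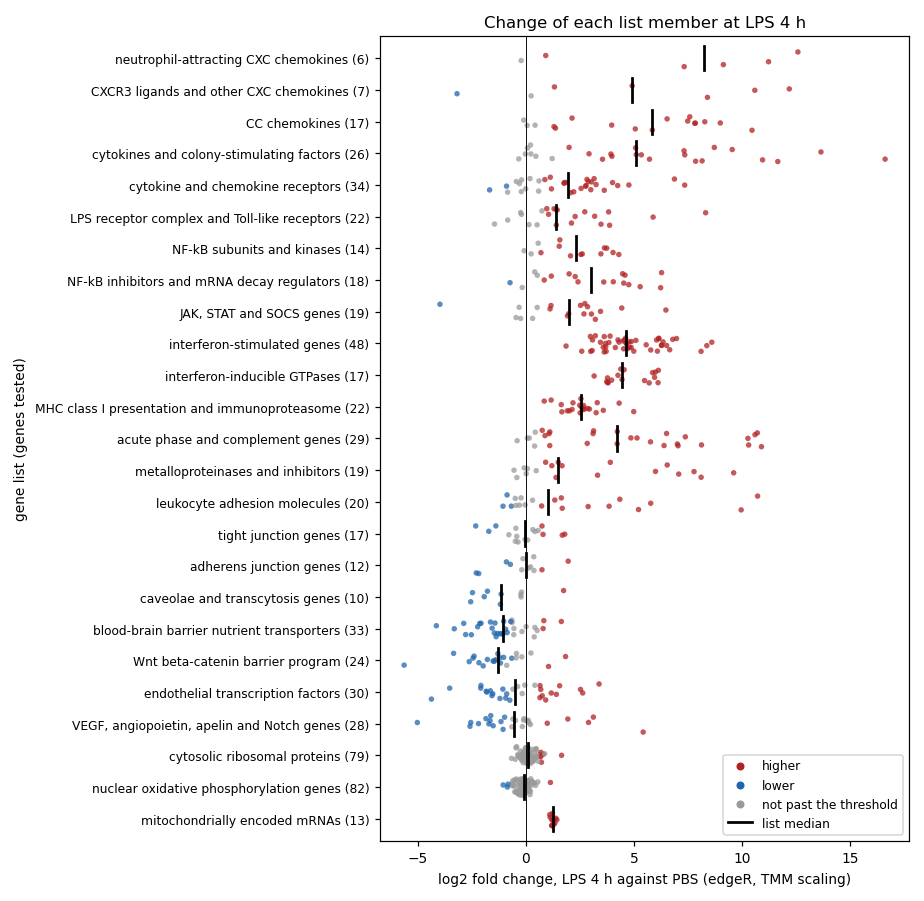
Log2 fold change (horizontal axis, LPS 4 h against PBS) of each tested member of 25 gene lists (vertical axis, number tested in parentheses), red where called higher, blue where called lower, grey where not past the threshold, with the list's median as a black bar. Inflammatory and interferon lists lie to the right, transporter, caveolar and Wnt lists to the left of 0, and ribosomal and oxidative phosphorylation genes close to it; genes with no fragment in PBS stand at a fitted value that depends on a small added count.

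Sele, Selp, Icam1, Vcam1 and Madcam1, leukocyte adhesion genes of activated endothelium, rose. Pecam1 and Icam2 fell, whereas F11r and Esam, of the same list, rose. Of 20 genes 11 rose and 3 fell (under library size alone, 10 rose and 8 fell). Sele (E-selectin, chr1:164048234-164057677, plus strand), on which leukocytes roll, had 0.450, 0.472 and 0.344 CPM in PBS and 421, 423 and 435 CPM at LPS 4 h (log2 fold change 9.96, SE 0.0637, edgeR adjusted p 4.80e-31). Selp (P-selectin) had 0.487, 0.574 and 0.954 CPM in PBS and 1118, 1125 and 1145 CPM at LPS 4 h (log2 fold change 10.71, SE 0.0833; 8.24 in the length-corrected gene table). Icam1, a ligand of leukocyte integrins, had 62.6, 63.0 and 60.1 CPM in PBS and 3417, 3351 and 3403 CPM at LPS 4 h (log2 fold change 5.77, SE 0.0287, edgeR adjusted p 5.56e-33), and Vcam1, the ligand of the integrin VLA-4, had 331, 343 and 327 CPM in PBS and 6788, 6816 and 6760.1 CPM at LPS 4 h (log2 fold change 4.35, SE 0.0231, edgeR adjusted p 2.18e-32). Madcam1, an addressin better known from the gut, went from 0.183 ± 0.0689 to 6.94 ± 0.510 CPM (log2 fold change 5.21, SE 0.486). In each of these genes every LPS 4 h library lay above every PBS library. Pecam1 and Icam2, which resting endothelium carries, fell from 821 ± 6.38 to 396 ± 5.94 CPM (log2 fold change -1.05, SE 0.0221) and from 115 ± 2.83 to 72.7 ± 1.94 CPM (log2 fold change -0.67, SE 0.0374), the latter not past the threshold with DESeq2 or without LPS 4 h 1 (-0.65).

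**Figure D5:**
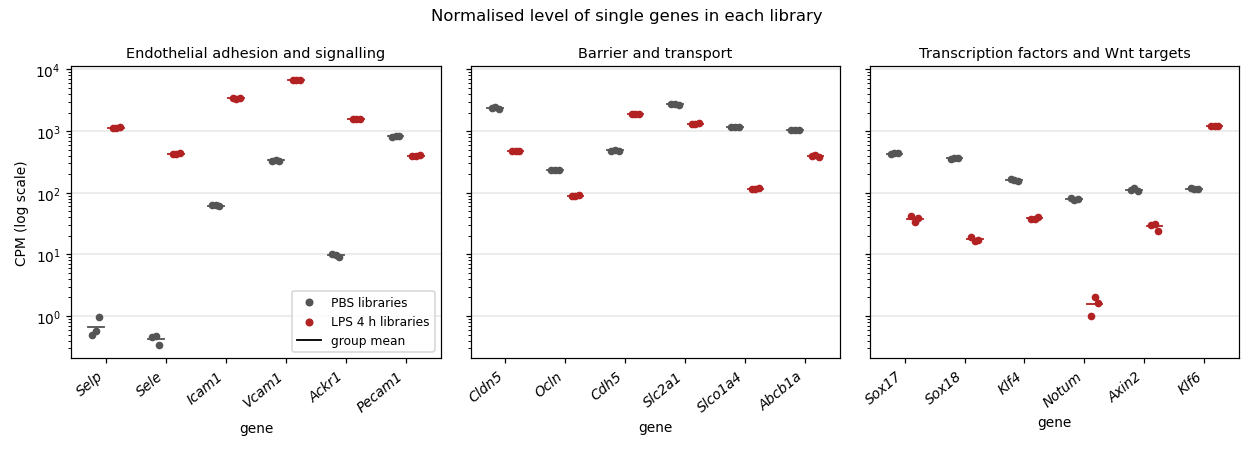
Level of adhesion, barrier and regulatory genes in each library (CPM, log scale, vertical axis), grey points for the 3 PBS and red for the 3 LPS 4 h libraries, with the group mean as a line. The spread within a group is small beside the distance between groups for all but a few: Selp and Sele start below 1 CPM and end at 1129 and 426, Cldn5 and Sox17 fall, and Cdh5 and Klf6 rise.

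Some genes of the surface coat and of the matrix were higher. Of 19 glycocalyx genes 7 rose (under library size alone, 4 rose and 7 fell). Sdc4 (syndecan-4), a heparan sulfate proteoglycan, had 58.4, 57.5 and 58.0 CPM in PBS and 787, 778 and 762 CPM at LPS 4 h (log2 fold change 3.74, SE 0.0293), and Ndst1, which sulfates its chains, rose by 1.59. Of 19 metalloproteinase and inhibitor genes 13 rose (under library size alone, 10 rose and 3 fell). Adamts9 had 12.3, 11.9 and 11 CPM in PBS and 1592, 1579 and 1562 CPM at LPS 4 h (log2 fold change 7.07, SE 0.0436) and Adamts4 had 1.95, 4.18 and 2.37 CPM in PBS and 639, 613 and 646 CPM at LPS 4 h (log2 fold change 7.78, SE 0.0925); both cut large matrix proteoglycans. Mmp3 went from 0.0604 ± 0.0204 to 51.6 ± 2.71 CPM (log2 fold change 9.61, SE 0.248; 8.92 in the length-corrected gene table) and Timp1, an inhibitor of these enzymes, from 1.22 ± 0.400 to 79.1 ± 1.74 CPM (log2 fold change 6.0, SE 0.132). Mmp2, present in PBS, was not past the threshold (0.022). Col4a1 and Col4a2, the chains of the main basement membrane collagen, rose from 632 ± 6.99 to 2148 ± 20.1 CPM (log2 fold change 1.76, SE 0.0212) and from 548 ± 6.71 to 1502 ± 30.8 CPM (log2 fold change 1.45, SE 0.0230), and Lama1, a laminin chain, fell from 49.8 ± 0.795 to 8.49 ± 1.04 CPM (log2 fold change -2.55, SE 0.0782). Eln (elastin), the fibre of arterial walls, had 874, 917 and 899 CPM in PBS and 57.0, 53.8 and 54.4 CPM at LPS 4 h (log2 fold change -4.03, SE 0.0308, edgeR adjusted p 1.92e-29).

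In coagulation and fibrinolysis 12 of 23 genes rose and 1 fell (under library size alone, 9 rose and 7 fell). Plaur, the urokinase receptor, had 8.28, 6.75 and 6.68 CPM in PBS and 774, 777 and 779 CPM at LPS 4 h (log2 fold change 6.75, SE 0.0480). Plat, the tissue plasminogen activator, rose from 269.5 ± 7.82 to 942 ± 4.1 CPM (log2 fold change 1.8, SE 0.0249), Procr, the endothelial protein C receptor, from 22.3 ± 1.55 to 131 ± 4.35 CPM (log2 fold change 2.55, SE 0.060) and Thbs1, thrombospondin-1, from 23.2 ± 1.06 to 496 ± 10.7 CPM (log2 fold change 4.42, SE 0.0399). F3 (tissue factor), which starts coagulation, had 20.8, 19.4 and 22.3 CPM in PBS and 20.6, 21.4 and 20.8 CPM at LPS 4 h and was not past the threshold (0.01). Thbd (thrombomodulin) was at 301 ± 7.58 CPM in PBS and 235 ± 8.72 CPM at LPS 4 h, not past it either.

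Junction genes moved in both directions. Of 17 tight junction genes 4 rose and 3 fell (under library size alone, 2 rose and 9 fell), and of 12 adherens junction genes 2 rose and 4 fell (under library size alone, 1 rose and 6 fell). Cldn5 (claudin-5, chr16:18776847-18778262, plus strand), the chief seal of brain endothelium, had 2332, 2442 and 2310.2 CPM in PBS and 480.5, 472 and 473 CPM at LPS 4 h (log2 fold change -2.31, SE 0.0224, edgeR adjusted p 8.34e-27). Ocln (occludin) had 236, 230.3 and 230.1 CPM in PBS and 88.0, 88.0 and 91.0 CPM at LPS 4 h (log2 fold change -1.38, SE 0.0305), and Lsr, of tricellular contacts, had 312, 314 and 315 CPM in PBS and 97.2, 93.3 and 97.3 CPM at LPS 4 h (log2 fold change -1.71, SE 0.0290). Cldn1 and F11r (JAM-A) rose, from 23.2 ± 1.26 to 81.0 ± 1.92 CPM (log2 fold change 1.8, SE 0.0581) and from 135 ± 1.34 to 434 ± 9.11 CPM (log2 fold change 1.69, SE 0.0296). Tjp1, the scaffold ZO-1, was at 500.2 ± 10.4 CPM in PBS and 359 ± 6.80 CPM at LPS 4 h and not past the threshold. Cdh5 (VE-cadherin) had 481, 494 and 482 CPM in PBS and 1889, 1888 and 1892 CPM at LPS 4 h (log2 fold change 1.96, SE 0.0215, edgeR adjusted p 2.68e-25), while Ptprb (VE-PTP), the phosphatase bound to it, had 1619, 1636 and 1507 CPM in PBS and 329, 334 and 312 CPM at LPS 4 h (log2 fold change -2.29, SE 0.0305) and Jup (plakoglobin) fell by 2.17. All 6 libraries of each of these called genes separated by group.

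Most genes of caveolae were lower. Of 10 genes of caveolae and transcytosis 6 fell and 1 rose (under library size alone, 1 rose and 9 fell). Cav1 and Cav2, the coat proteins, went from 307 ± 7.63 to 89.7 ± 3.69 CPM (log2 fold change -1.77, SE 0.0327) and from 191 ± 5.54 to 34.6 ± 3.33 CPM (log2 fold change -2.46, SE 0.0456), and Cavin2 from 243 ± 1.2 to 41.8 ± 2.63 CPM (log2 fold change -2.54, SE 0.0361). Cavin3 had 119, 117 and 113 CPM in PBS and 392, 369 and 415 CPM at LPS 4 h and rose (log2 fold change 1.75, SE 0.0413). Mfsd2a, the lipid carrier that keeps vesicle transport low in brain endothelium, had 103, 107 and 108 CPM in PBS and 27.4, 26.6 and 30.1 CPM at LPS 4 h (log2 fold change -1.92, SE 0.0452). Plvap, of the diaphragms of leaky vessels, was at 26.8 ± 2.19 CPM in PBS and 23.1 ± 1.58 CPM at LPS 4 h and not past the threshold.

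Transporter genes of the blood-brain barrier were lower as a group. Of 33 genes tested 21 fell and 3 rose (under library size alone, 1 rose and 26 fell), at a median log2 fold change of -1.05 against -0.0098 over all genes. Slco1a4 (chr6:141805440-141856199, minus strand), a carrier of steroid conjugates and organic anions, had 1157, 1144 and 1161 CPM in PBS and 116, 117 and 117 CPM at LPS 4 h (log2 fold change -3.30, SE 0.0236, edgeR adjusted p 8.85e-30). Slc40a1 (ferroportin), which exports iron, had 181, 183 and 185 CPM in PBS and 10.7, 11 and 9.63 CPM at LPS 4 h (log2 fold change -4.13, SE 0.0497, edgeR adjusted p 1.09e-25). Slc7a5, the carrier of large neutral amino acids, had 468, 479 and 476 CPM in PBS and 70.6, 69.1 and 68.0 CPM at LPS 4 h (log2 fold change -2.78, SE 0.0289), whereas its heavy chain Slc3a2 went from 343 ± 8.2 to 450.1 ± 4.97 CPM and was not past the threshold. Slc2a1, the glucose carrier, had 2730.1, 2788 and 2686 CPM in PBS and 1324, 1311 and 1337 CPM at LPS 4 h (log2 fold change -1.05, SE 0.0175). Slc38a5 fell by 2.87, Slc52a3, which carries riboflavin, by 2.51, Tfrc, the transferrin receptor, by 2.13, and Slc16a1, which carries lactate and ketones, by 1.45. Slc1a1, a glutamate carrier, rose from 73.9 ± 0.554 to 231 ± 8.37 CPM (log2 fold change 1.64, SE 0.0356). Bsg (basigin), the partner of the lactate carriers, had rank 1 in lost CPM, with 4221, 4254 and 4146 CPM in PBS and 1225, 1153 and 1244 CPM at LPS 4 h (log2 fold change -1.8, SE 0.0236). Among 11 ABC transporter genes 3 rose and 4 fell (under library size alone, 3 rose and 7 fell): Abcb1a, the P-glycoprotein of mouse brain endothelium, had 1029, 1039 and 1026 CPM in PBS and 397, 406 and 379 CPM at LPS 4 h (log2 fold change -1.39, SE 0.0239), its paralog Abcb1b had 7.27, 5.74 and 6.53 CPM in PBS and 42.0, 35.4 and 43.4 CPM at LPS 4 h (log2 fold change 2.63, SE 0.120), and Abcg2 was at 242 ± 3.33 CPM in PBS and 169 ± 3.44 CPM at LPS 4 h and not past the threshold.

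Of 12 general endothelial markers 2 rose and 6 fell (under library size alone, 1 rose and 9 fell), with a summed level between 10454 and 10695 CPM in PBS and between 7558 and 7628 CPM at LPS 4 h. In bulk vessels, fewer cells of a type and less RNA per cell cannot be told apart. Flt1, Emcn and Ly6c1 stood at 1885 ± 25.9 CPM in PBS and 1789 ± 22.7 CPM at LPS 4 h, 115 ± 1.19 CPM in PBS and 108 ± 0.691 CPM at LPS 4 h and 1288 ± 11.5 CPM in PBS and 1456 ± 15.2 CPM at LPS 4 h and were not past the threshold, and Egfl7 fell from 508 ± 65.2 to 66.1 ± 15.3 CPM (log2 fold change -2.94, SE 0.111). Of 9 arterial markers 7 fell and 2 rose (under library size alone, 0 rose and 7 fell); Gkn3 fell from 143 ± 8.27 to 21.8 ± 2.29 CPM (log2 fold change -2.72, SE 0.0575), Bmx from 79.8 ± 3.01 to 19.9 ± 0.866 CPM (log2 fold change -2.0, SE 0.0582), and Gja4 rose from 109 ± 5.74 to 268 ± 3.43 CPM (log2 fold change 1.30, SE 0.0361). Of 9 venous markers 3 rose and 3 fell (under library size alone, 3 rose and 5 fell), with a median log2 fold change of -0.59. Those that rose were Ackr1, Lcn2 and Tmem252, and Slc38a5 fell most (log2 fold change -2.87). Tmem252 had 62.2, 60.5 and 62.0 CPM in PBS and 3202, 3157 and 3161 CPM at LPS 4 h (log2 fold change 5.69, SE 0.0272). Among mural cells, 3 of 12 pericyte and 2 of 10 smooth muscle markers fell and 1 and 1 rose, while under library size alone 11 and 7 fell and 1 and 0 rose; Rgs5 and Pdgfrb of pericytes were at 2089 ± 24 CPM in PBS and 2179 ± 63.3 CPM at LPS 4 h and 265 ± 4.02 CPM in PBS and 274 ± 2.25 CPM at LPS 4 h, and Acta2 and Myh11 of smooth muscle at 1018 ± 10.2 CPM in PBS and 921 ± 13.5 CPM at LPS 4 h and 662 ± 13.5 CPM in PBS and 564 ± 10.7 CPM at LPS 4 h, none past the threshold.

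The Wnt program that keeps the barrier was lower. Of 24 genes 16 fell and 2 rose (under library size alone, 1 rose and 21 fell), with a median of -1.30. Tcf7, a factor that acts with beta-catenin, had 61.9, 57.4 and 57.1 CPM in PBS and 6.55, 5.79 and 5.19 CPM at LPS 4 h (log2 fold change -3.33, SE 0.0885). Axin2, a feedback inhibitor used as a readout of Wnt, had 111, 119 and 105 CPM in PBS and 30.5, 31.2 and 24.1 CPM at LPS 4 h (log2 fold change -1.97, SE 0.0652), and Apcdd1, another target, had 439, 432 and 417 CPM in PBS and 122, 125 and 129 CPM at LPS 4 h (log2 fold change -1.77, SE 0.0298). Adgra2 (GPR124) and Reck, co-receptors for Wnt7, fell by 2.16 and 1.2. Fzd4, the receptor of norrin, rose from 152 ± 0.965 to 544 ± 7.84 CPM (log2 fold change 1.84, SE 0.0271), while Fzd6 fell by 2.39. Ctnnb1, beta-catenin itself, was at 1077 ± 3.07 CPM in PBS and 949 ± 1.61 CPM at LPS 4 h and not past the threshold (-0.18).

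Endothelial transcription factors divided. Of 30 genes 11 rose and 14 fell (under library size alone, 5 rose and 18 fell). Sox18 (chr2:181669836-181671640, minus strand), a factor of vessel formation, had 355, 365 and 364 CPM in PBS and 19.1, 16.6 and 17.1 CPM at LPS 4 h (log2 fold change -4.36, SE 0.0410, edgeR adjusted p 8.04e-28). Sox17, of the same family, had 422, 439 and 436 CPM in PBS and 41.7, 33.4 and 38.7 CPM at LPS 4 h (log2 fold change -3.52, SE 0.0440). Sox7, the third of that family, rose from 49.5 ± 1.45 to 132 ± 5.91 CPM (log2 fold change 1.41, SE 0.0495). Klf4 fell from 162 ± 7.62 to 38.4 ± 1.5 CPM (log2 fold change -2.07, SE 0.0397) and Klf6 had 118, 114 and 115 CPM in PBS and 1208, 1230.1 and 1201 CPM at LPS 4 h (log2 fold change 3.39, SE 0.0266); both are zinc finger factors of vessel walls. Ets1 rose by 1.56 and Elf1 by 2.53, while the related Fli1 and Elk3 fell by 1.83 and 1.52. Smad6 and Smad7, inhibitors of BMP and TGF-beta signals, fell by 1.64 and 1.56, and Smad1, which carries BMP signals, rose by 2.63. Epas1, among the most abundant of these, was at 2287 ± 47.6 CPM in PBS and 2040.2 ± 30.5 CPM at LPS 4 h and not past the threshold.

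Tek and Kdr, receptors of vessel rest and growth, fell and Angpt2, an antagonist, rose. Of 28 genes of the VEGF, angiopoietin, apelin and Notch pathways 5 rose and 12 fell (under library size alone, 4 rose and 19 fell). Tek (Tie2), the receptor that keeps vessels quiescent, had 519, 513 and 515 CPM in PBS and 89.5, 84.0 and 85.8 CPM at LPS 4 h (log2 fold change -2.58, SE 0.0294, edgeR adjusted p 1.37e-25), and Kdr (VEGFR2) had 358, 351 and 345 CPM in PBS and 77.9, 75.8 and 78.5 CPM at LPS 4 h (log2 fold change -2.18, SE 0.0313). Angpt2, the antagonist of Tie2 in activated endothelium, had 21, 20.4 and 19.2 CPM in PBS and 147, 158 and 148 CPM at LPS 4 h (log2 fold change 2.90, SE 0.0672), and Angpt1, the agonist, went from 18.6 ± 1.13 to 9.42 ± 1.02 CPM (log2 fold change -0.98, SE 0.102). Aplnr, the apelin receptor, had 17.8, 18 and 16.8 CPM in PBS and 0.154, 0.599 and 0.820 CPM at LPS 4 h (log2 fold change -5.01, SE 0.222). Jag2 fell by 2.54 and Notch4 by 1.65, and Dll1, also a Notch ligand, rose by 3.13. Vegfa, Flt1, Notch1 and Jag1 were not past the threshold.

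The enzymes named here for the synthesis of prostaglandin E2 were higher, and the synthases of prostacyclin and D2 lower. Of 17 genes 8 rose and 5 fell (under library size alone, 5 rose and 7 fell). Ptgs2 (cyclooxygenase-2, chr1:150100031-150108227, plus strand) had 32.9, 33.5 and 32.4 CPM in PBS and 5015, 5001 and 5008 CPM at LPS 4 h (log2 fold change 7.25, SE 0.0281, edgeR adjusted p 7.98e-35) and Ptges, the inducible E2 synthase, had 18.7, 19.6 and 18.4 CPM in PBS and 366, 361 and 363 CPM at LPS 4 h (log2 fold change 4.26, SE 0.0463). Pla2g4a, which frees arachidonic acid, rose from 41.6 ± 2.87 to 207 ± 4.82 CPM (log2 fold change 2.32, SE 0.0523). Ptgs1, the constitutive cyclooxygenase, fell from 13 ± 1.68 to 6.12 ± 0.732 CPM (log2 fold change -1.09, SE 0.131), Ptgis, the prostacyclin synthase, from 77.0 ± 2.14 to 32.7 ± 0.390 CPM (log2 fold change -1.23, SE 0.0495), Ptgds, the D2 synthase, from 4926 ± 46.3 to 2559 ± 77.8 CPM (log2 fold change -0.94, SE 0.0199) and Hpgd, which degrades prostaglandins, from 8.66 ± 0.878 to 1.68 ± 0.124 CPM (log2 fold change -2.35, SE 0.17). Of 24 genes of vascular tone 6 rose and 5 fell (under library size alone, 4 rose and 10 fell). Nos3, the endothelial nitric oxide synthase, had 565, 566 and 566 CPM in PBS and 269, 246 and 258 CPM at LPS 4 h (log2 fold change -1.13, SE 0.0291), and Nos2, the inducible form, had 15.9, 14.1 and 17.3 CPM in PBS and 55.3, 52.0 and 51.0 CPM at LPS 4 h (log2 fold change 1.74, SE 0.0732). Adm (adrenomedullin), a dilator peptide, rose from 4.19 ± 1.14 to 116 ± 6.23 CPM (log2 fold change 4.78, SE 0.120), while Ramp2, the receptor subunit that makes a cell respond to it, had 316, 319 and 321 CPM in PBS and 46.5, 45.5 and 43.0 CPM at LPS 4 h (log2 fold change -2.82, SE 0.0329). Bdkrb1, the inducible bradykinin receptor, went from 0.463 ± 0.254 to 4.81 ± 0.506 CPM (log2 fold change 3.37, SE 0.329).

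Acute phase genes better known from the liver were among the largest rises. Of 29 acute phase and complement genes 24 rose (median 4.23; under library size alone, 19 rose and 1 fell). Lcn2 (lipocalin-2, chr2:32384633-32388252, minus strand), which binds bacterial siderophores, had 6.56, 5.84 and 6.22 CPM in PBS and 10384, 10238 and 10371 CPM at LPS 4 h (log2 fold change 10.70, SE 0.0793, edgeR adjusted p 3.94e-30), and none of its 31-base words occurs in another gene. Saa3 had 0.262, 0.405 and 0.382 CPM in PBS and 453, 418 and 448 CPM at LPS 4 h (log2 fold change 10.27, SE 0.0977), Ch25h, which makes 25-hydroxycholesterol, 6.14, 7.63 and 8.78 CPM in PBS and 1244, 1225 and 1275 CPM at LPS 4 h (log2 fold change 7.38, SE 0.0561), and C3, the hub of complement, went from 3.10 ± 0.60 to 58.3 ± 2.35 CPM (log2 fold change 4.22, SE 0.117). Hamp (hepcidin), the hormone that degrades ferroportin, had no fragment in PBS and 10.4 CPM at LPS 4 h, at least 287-fold higher. In the iron and metallothionein group 8 of 16 rose and 2 fell (under library size alone, 7 rose and 5 fell), the latter being ferroportin and the transferrin receptor. Mt2, which binds zinc, had 64.7, 62.3 and 63.2 CPM in PBS and 8322, 8151 and 7949 CPM at LPS 4 h (log2 fold change 7.0, SE 0.0404, edgeR adjusted p 5.20e-32) and had rank 3 by TPM at LPS 4 h, with 27844 TPM; 56.1% of its words occur in other genes, chiefly in Gm45774. Slc39a14, an importer of zinc and iron, rose by 2.73.

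Of 22 enzymes of immune metabolism 13 rose. Acod1, which makes itaconate, had 0, 0.169 and 0 CPM in PBS and 85.6, 86.2 and 86.0 CPM at LPS 4 h, with 5 fragments in 1 PBS library and none in the others. Ido1, which breaks down tryptophan, went from 0.754 ± 0.126 to 30.0 ± 1.59 CPM (log2 fold change 5.31, SE 0.260), Gch1, of the cofactor of nitric oxide synthases, from 36.6 ± 1.73 to 243 ± 12.9 CPM (log2 fold change 2.73, SE 0.0489), Sod2, the mitochondrial superoxide dismutase, from 73.0 ± 2.49 to 1087 ± 4.54 CPM (log2 fold change 3.9, SE 0.0301, and 4.53 in the edgeR fit with a transcript length offset) and Xdh, a source of uric acid, from 186 ± 4.67 to 1069 ± 5.25 CPM (log2 fold change 2.52, SE 0.0269). In glycolysis and hypoxia 9 of 23 rose and 1 fell (under library size alone, 6 rose and 8 fell). Pfkfb3, which drives glycolysis through fructose 2,6-bisphosphate, had 29.3, 27.4 and 26.8 CPM in PBS and 2578, 2590.2 and 2591 CPM at LPS 4 h (log2 fold change 6.54, SE 0.0340), and Hif1a had 75.0, 72.1 and 76.1 CPM in PBS and 725, 753 and 722 CPM at LPS 4 h (log2 fold change 3.30, SE 0.0297). Of 18 genes of the tricarboxylic acid cycle 0 were past the threshold in edgeR, with 13 of them at an unadjusted p below 0.05 against no change with 1 below it in the test beyond 1.5-fold and 0 called by DESeq2; under library size alone 14 fell. Of 15 retinoid genes 3 rose and 9 fell (under library size alone, 2 rose and 10 fell), with a median log2 fold change of -1.05. The largest fall among them was that of Adh1, from 17.0 ± 1.65 to 0.258 ± 0.0744 CPM. Stra6, the retinol carrier of the barrier, was among those that rose, with 88.6, 84.7 and 93.8 CPM in PBS and 990.0, 1001 and 1005 CPM at LPS 4 h (log2 fold change 3.49, SE 0.0334).

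Cell death genes rose on the protective and the destructive side, 24 of 33, and 1 fell (under library size alone, 20 rose and 5 fell). Birc3, an inhibitor of caspases and part of the TNF receptor complex, had 20.4, 20.8 and 16.8 CPM in PBS and 535, 533 and 519 CPM at LPS 4 h (log2 fold change 4.77, SE 0.0527), and Cflar, which blocks caspase 8, rose from 125 ± 4.94 to 1020.4 ± 8.18 CPM (log2 fold change 3.02, SE 0.0311). Casp4, which binds LPS inside cells, had 5.77, 3.88 and 5.23 CPM in PBS and 355, 343 and 329 CPM at LPS 4 h (log2 fold change 6.12, SE 0.0912), Mlkl, the executor of necroptosis, went from 5.49 ± 0.576 to 157 ± 4.28 CPM (log2 fold change 4.84, SE 0.0749), Gsdmd, the pore of pyroptosis, from 41.6 ± 0.515 to 120.4 ± 4.68 CPM (log2 fold change 1.53, SE 0.0448) and Nlrp3, an inflammasome sensor, from 0.964 ± 0.316 to 36.1 ± 0.925 CPM (log2 fold change 5.21, SE 0.176). Bax was not past the threshold (-0.35).

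Stress hormones and proteotoxic stress have their own target genes. Of 18 genes listed as glucocorticoid targets, the receptor gene Nr3c1 among them, 11 rose and 1 fell (under library size alone, 10 rose and 3 fell). Fkbp5 had 18.8, 17.9 and 21.6 CPM in PBS and 154, 147 and 147 CPM at LPS 4 h (log2 fold change 2.94, SE 0.0509), Errfi1 had 39.4, 39.4 and 38.9 CPM in PBS and 1879, 1883 and 1848 CPM at LPS 4 h (log2 fold change 5.57, SE 0.0395) and Pdk4 rose from 16.4 ± 0.232 to 165 ± 5.55 CPM (log2 fold change 3.33, SE 0.0582), while Tsc22d3 (GILZ) was at 137 ± 1.74 CPM in PBS and 158 ± 5.87 CPM at LPS 4 h and not past the threshold. Of 28 heat shock and unfolded protein genes 19 rose, but under library size alone 8 rose and 3 fell. Atf4 rose from 104 ± 0.909 to 612 ± 12.6 CPM (log2 fold change 2.56, SE 0.0292) and Xbp1, a factor of the unfolded protein response, from 104 ± 2.83 to 544 ± 8.49 CPM (log2 fold change 2.39, SE 0.0311). Clock genes moved both ways, 5 higher and 5 lower of 18 (under library size alone, 3 rose and 10 fell). Dbp, an output factor of the clock, had 124, 126 and 129 CPM in PBS and 21.8, 21.4 and 20.6 CPM at LPS 4 h (log2 fold change -2.58, SE 0.0422), Nr1d1 (REV-ERB alpha) fell from 209 ± 2.74 to 81.5 ± 6.11 CPM (log2 fold change -1.36, SE 0.0405), and Per1, which also answers to glucocorticoids, rose from 79.3 ± 1.34 to 265 ± 8.28 CPM (log2 fold change 1.74, SE 0.0333). Arntl (BMAL1) was at 31.7 ± 1.86 CPM in PBS and 34.8 ± 1.57 CPM at LPS 4 h and not past the threshold. As the time of day of either kill is not given, a shift of the clock between the groups and an effect of LPS cannot be told apart for these genes.

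For the machinery of translation and respiration the scale decided the calls. Of 79 ribosomal protein genes 5 rose, with a median of 0.093 on the TMM scale, which became -0.61 under library size alone, where 1 rose and 37 fell; on the reference genes 55 fell. Of 82 nuclear genes of oxidative phosphorylation 1 rose and 3 fell, with a median of -0.10; under library size alone 0 rose and 55 fell, and on the reference genes 73 fell. The 13 mRNAs of the mitochondrial genome were all higher, with a median of 1.24; under library size alone 3 were, and on the reference genes 0. With the ribosomal RNAs, 15 mitochondrial genes held 6.43 ± 0.0834% of fragments in PBS and 9.33 ± 0.145% at LPS 4 h.

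Markers of cells outside the vessel wall moved too, and their part in the results was not tested. All 7 erythroid genes rose, their summed level lying between 2318 and 2493 CPM in PBS and between 6948 and 7317 CPM at LPS 4 h. The choroid plexus and ependyma list had a summed level between 10382 and 10816 CPM in PBS and between 17437 and 18331 CPM at LPS 4 h, most of it Ttr (transthyretin), and 5 of 7 rose, of which 1 did under library size alone and 0 on the reference genes. Of 12 microglia markers 6 fell (under library size alone, 0 rose and 12 fell), with a median of -1.08: Cx3cr1, the fractalkine receptor, went from 12 ± 1.43 to 2.04 ± 0.174 CPM (log2 fold change -2.55, SE 0.161) and P2ry12 from 5.08 ± 0.164 to 1.55 ± 0.346 CPM (log2 fold change -1.70, SE 0.225), while Csf1r was not past the threshold. Astrocyte markers rose in 3 and fell in 2 of 10 genes (under library size alone, 2 rose and 4 fell). Their log2 fold changes ran from -2.04 to 2.81, with a median of 0.31, which was -0.40 under library size alone. Gja1 (connexin 43), of their endfeet and the largest rise among them, had 74.0, 75.0 and 74.7 CPM in PBS and 534, 519 and 515 CPM at LPS 4 h (log2 fold change 2.81, SE 0.0387). Aqp4, another gene of the endfeet, is uncertain, with 2.49 from summed fragments and 0.23 in the length-corrected table. It stood at 3.12 without PBS 2, and at 1.97 and not past the threshold without LPS 4 h 2. With DESeq2 it was not past the threshold either. Neuron and oligodendrocyte markers fell in 4 of 10 and 3 of 8 genes, and under library size alone in 9 and 6. In fibroblasts 5 of 9 fell (under library size alone, 0 rose and 8 fell): Col1a1 went from 90.2 ± 5.17 to 23.9 ± 1.44 CPM (log2 fold change -1.92, SE 0.0629) and Slc6a13, a GABA carrier, from 117 ± 2.61 to 24.4 ± 1.97 CPM (log2 fold change -2.26, SE 0.0531), while Dcn and Lum were not past the threshold. Of 6 sex-linked genes tested, 2 rose and 1 fell (under library size alone, 1 rose and 2 fell). Xist, made from the inactive X, was at 296, 254 and 371 CPM in PBS and 125, 184 and 134 CPM at LPS 4 h, and the Y-linked Ddx3y at 49.4, 54.4 and 40.2 and 148, 141 and 151. The part of the sex-linked genes in the other results was not tested.

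By the rule of largest change, several genes stood out, all but Serpina3f outside the lists. Among the 40 largest rises, Slfn4, a myeloid gene, had 0.599, 0.877 and 0.649 CPM in PBS and 723, 769.8 and 743 CPM at LPS 4 h (log2 fold change 10.02, SE 0.0757), Serpina3f, a serine protease inhibitor gene, 0.187, 0.371 and 0.611 CPM in PBS and 595, 624 and 605 CPM at LPS 4 h (log2 fold change 10.59, SE 0.10), and Bpifb1, a secreted protein of mucosa, 0.187, 0.27 and 0.0763 CPM in PBS and 49.0, 78.2 and 56.8 CPM at LPS 4 h (log2 fold change 8.36, SE 0.293). Clec4e (Mincle), a receptor of damaged cells and mycobacteria, went from 0.112, 0 and 0.0763 to 21, 23.2 and 21 CPM. Among the 40 largest falls, Pllp (plasmolipin), a membrane protein, had 156, 157 and 157 CPM in PBS and 4.32, 3.40 and 3.89 CPM at LPS 4 h (log2 fold change -5.35, SE 0.0670), Lyl1, a blood and endothelial transcription factor, 29.5, 26.9 and 26.6 CPM in PBS and 0.694, 0.733 and 1.78 CPM at LPS 4 h (log2 fold change -4.67, SE 0.168; -5.27 without LPS 4 h 3), Hspa12b, an endothelial heat shock gene, 343, 339 and 323 CPM in PBS and 17.4, 12.9 and 15.0 CPM at LPS 4 h (log2 fold change -4.48, SE 0.0525) and Slc9a3r2 (NHERF2), a scaffold, 795, 818 and 817 CPM in PBS and 58.4, 61.6 and 61.3 CPM at LPS 4 h (log2 fold change -3.74, SE 0.0277). Clec14a, a lectin of the endothelial surface, fell from 169 ± 2.16 to 15.5 ± 2.54 CPM (log2 fold change -3.46, SE 0.0614). In gained CPM, Clic4, an intracellular chloride channel protein, had rank 10, with 767, 773 and 738 CPM in PBS and 7364, 7344 and 7383 CPM at LPS 4 h (log2 fold change 3.28, SE 0.0204). In lost CPM, Spock2 (testican-2), a matrix proteoglycan, had 2391, 2422 and 2425 CPM in PBS and 556, 551 and 561 CPM at LPS 4 h (log2 fold change -2.12, SE 0.0189) and Itm2a, a membrane protein of brain endothelium, 932, 959.8 and 920.1 CPM in PBS and 226, 228 and 223 CPM at LPS 4 h (log2 fold change -2.05, SE 0.0240). The rule for the largest rises and falls required groups that do not overlap.

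One gain rests on a gene model of unusual kind. AC160336.1 (chr14:44544055-44637201, minus strand), a noncoding RNA with a single transcript of 93147 bases, had 218, 220.5 and 224 CPM in PBS and 19414, 20244 and 19621 CPM at LPS 4 h (log2 fold change 6.48, SE 0.0237), rank 2 of all genes in gained CPM. Of its 31-base words 19.0% occur in 7277 other genes, and whether its fragments come from this locus was not tested. It held 0.0257 ± 0.000345% of fragments in PBS and 1.42 ± 0.0336% at LPS 4 h, a gain of 1.39 percentage points, within the rise in the share of long intergenic noncoding RNA, from 0.994 ± 0.00692% to 2.61 ± 0.0431%, a gain of 1.62. Fragments of retained introns went from 5.17 ± 0.0117% to 4.51 ± 0.0195%, and those of protein-coding transcripts from 88.3 ± 0.196% to 87.4 ± 0.0150%. For each of these the exact permutation test over the 6 libraries (two-sided) gave p = 0.1, the smallest it can give, and 0.11 after Benjamini-Hochberg adjustment over the 11 transcript types tested.

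Genes also changed which transcript they used. Of 10923 genes with at least 2 transcripts to test, 156, or 1.43%, were past an adjusted p of 0.05 in edgeR with a transcript whose mean share moved by at least 20 percentage points. In 70 of them the transcripts that lost and gained most start at least 1000 bases apart and in 86 less; 65 of the genes were higher as a whole, 34 lower and 57 not past the threshold. Wars, the tryptophan-tRNA ligase gene that interferon induces, made 9.10, 7.06 and 9.85% of its fragments from Wars-205 in PBS and 74.0, 79.1 and 77.4% at LPS 4 h (edgeR adjusted p 5.30e-09); the start of Wars-205 lies 976 bases from that of Wars-201, which lost. Rcan1, an inhibitor of calcineurin, moved to Rcan1-201, whose start lies 66069 bases from that of Rcan1-202, with 19.2, 15.7 and 28.7% in PBS and 90.2, 89.7 and 92.1% at LPS 4 h (edgeR adjusted p 5.39e-09). Lhfpl2 had 0, 0 and 0% of Lhfpl2-204 in PBS and 89.9, 85.6 and 84.5% at LPS 4 h, with starts 116196 bases apart. The other 7 genes of the 10 largest changes were 9930038B18Rik, Zfp961, Ddx41, Gm14325, Col26a1, Mmp12 and Pla2g4c; in Zfp961 and Col26a1 the starts of the pair lie 33 and 63 bases apart and in Ddx41 and Mmp12 at the same base. Among genes chosen after their values were seen, Snx10 moved to Snx10-207, with 20.4, 15.4 and 28.9% in PBS and 81.0, 80.7 and 86.2% at LPS 4 h, and Nt5c3 to Nt5c3-202, with 33.0, 22.3 and 41.9% and 94.7, 94.6 and 93.2%. Salmon's own uncertainty in dividing fragments between transcripts was not available here. The groups of 3 did not overlap in any of these named pairs with values. As the pairs were chosen for large changes or after their values were seen, that absence of overlap is no further evidence.

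Some called genes lay in runs of neighbours, most of them short: 112 of the runs that rose and 81 of those that fell held 3 genes. Only the longest are described, and no test was made of whether such runs exceed what the share of called genes gives. The longest run of neighbouring tested protein-coding genes that all rose held 13, from Aim2 to Ifi205 (chr1:173350879-174031810), mostly Ifi200 family genes that sense DNA, at a median log2 fold change of 5.23. The next held 12 genes from Irgm1 to Olfr1395 (chr11:48861968-49150453), among them Tgtp1, Tgtp2 and Ifi47 (median 4.64). A run of 10 on chr11:117809668-118290244 included Socs3 (median 1.70), one of 9 on chr11:83473086-83752642 held Ccl5, Ccl9, Ccl6, Ccl3 and Ccl4 (median 7.16), and one of 7 on chr11:82951349-83215154 the Slfn genes (median 4.56). Of the 5 runs of 7 genes, another held Gbp5, Gbp7, Gbp3 and Gbp2 (chr3:142239590-142783606, median 3.79). The 2 longest runs that fell held 6 genes, from Pip5k1c to Mfsd12 (chr10:81292963-81366225, median -1.05) and from Zswim3 to Pltp (chr2:164805098-164857711, median -1.59). Tgtp1 and Tgtp2 share 94.2 and 94.7% of their 31-base words with other genes, so that members of such a run are not counted independently.

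Genes with no fragment in a group give bounds only. Of the genes called, 35 had no fragment in any PBS library and a level above 0 at LPS 4 h, and 23 the reverse. Cd177, a neutrophil surface gene, reached 5.62 CPM, at least 155-fold higher, and Dmbt1, a mucosal defence gene, 9.76 CPM, at least 269-fold. Orm1, an acute phase gene, reached 1.52 CPM, at least 41.9-fold.

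The levels at the earlier times set the 4 h values beside their course; all times share the PBS libraries. Sele stood at 5.38 ± 0.348 CPM 15 min and 195 ± 2.52 CPM 30 min after LPS, against 426 ± 7.77 at LPS 4 h. Icam1 stood at 159 ± 4.76, 1745 ± 28.3 and 3390.4 ± 34.8 CPM in that order, and Ptgs2 at 80.2 ± 0.242, 881 ± 23.8 and 5008 ± 6.83. Lcn2 had 23 ± 4.24 and 406 ± 6.97 CPM at 15 and 30 min against 6.20 ± 0.360 in PBS. Of the interferon-stimulated genes, Rsad2 had 23.4 ± 2.09 and 22 ± 1.16 against 26.3 ± 1.33, and Gbp2 84.5 ± 8.54 and 99.0 ± 2.51 against 70.6 ± 5.53. Among the genes that were lower at LPS 4 h, Cldn5 had 1419.6 ± 5.48 and 1269 ± 3.46 CPM at the earlier times against 2362 ± 70.8 in PBS, Slco1a4 1111 ± 13 and 991 ± 11.2 against 1154 ± 9.11, and Sox18 332 ± 5.48 and 306 ± 6.97 against 361 ± 5.40.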

How the data were processed

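RNA was measured in cerebral vessels by SMART-Seq v4 and Nextera XT libraries sequenced in pairs, a kit that does not mark strand, so that genes which overlap on opposite strands cannot be told apart. Per the labels and the methods of the study, the authors ran Salmon (1.2.1) on GRCm38.p6 and summed transcripts to genes with tximport for DESeq2. The deposited files hold estimated counts and TPM per transcript for each library, and a gene table of normalized signal, which the authors divided by size factors and transcript length factors. Replicates were not pooled in them.

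Estimated counts were rounded and summed to genes of GENCODE M21 (139852 of 140948 transcripts matched; the others held 0.482 to 0.850% of fragments). edgeR (4.0.16; R 4.3.3) was fitted to all 12 libraries with filterByExpr, TMM factors and a quasi-likelihood test beyond a log2 fold change of 0.58 (glmTreat), with Benjamini-Hochberg adjustment. Transcript usage was tested with diffSpliceDGE. Length-corrected values quoted beside a gene are log2 ratios of group means of the deposited signal table after adding 1; 523 of 16721 genes differed by over 0.5 between it and the summed counts. Shared sequence is the share of 31-base words of the main transcript found in other genes. In simulated counts for this comparison, edgeR recovered 78% of 50 genes changed by 1 on the log2 scale, 96% at 1.5 and 100% at 2 or more (18388 genes). The changed genes had a mean of at least 50 fragments per library, and equal numbers rose and fell. The shares thus do not cover genes with fewer fragments or a shift in composition like the one seen here. Depth was 18309177 to 25641124 fragments in the 6 libraries.

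Genes named are those of lists of pathways and cell types, the 40 called genes that rose most and the 40 that fell most, with a mean of at least 5 CPM and no overlap, the 10 highest by TPM in each group, the 15 largest gains and losses of CPM, the 10 largest changes of transcript share, and the longest runs of called neighbours; the members and lists were chosen with earlier results of these data known. Alternatives were DESeq2 (1.42.0), limma (3.58.1) on log2(value + 1) or log2(value + 10) of the deposited table, other scalings, filters and limits, a transcript length offset, the 6 libraries alone, a replicate block and leaving out each library.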

Additional observations from a re-analysis of the deposited data

How the results depend on the processing

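Counts of called genes moved most with the scale and the limit. Under library size alone 10523 genes were called (1919 higher, 8604 lower) and on the reference genes 12260 (1632 and 10628), so that the higher genes went from 58.0% of calls to 18.2 and 13.3%; by construction these shift all fold changes. Without a fold limit 13124 were called (6680 higher, 6444 lower), and with an added log2 limit of 1.5 the number was 2858 (1963 higher, 895 lower). Leaving out each library gave 6059 to 6252 calls, with 3535 to 3651 higher and 2524 to 2609 lower. DESeq2 called 5225, and limma 5224 and 4948.

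Genes with changed transcript usage numbered 393 with limma, 96 with a mean of at least 100 fragments, 320 and 85 with limits of 10 and 30 percentage points, and 135 to 178 without each library in turn. The protein-coding share turned from -0.869 to 1.86 percentage points as a share of TPM; the cause was not tested. Without the 20 most abundant genes the differences were smaller, with -0.120 for protein-coding, 0.356 for long intergenic noncoding and -0.370 for retained intron transcripts, and as shares of TPM the latter were 1.02 and -1.78. Without each library in turn the protein-coding difference lay between -0.944 and -0.758, the long intergenic noncoding share between 1.60 and 1.64 and the retained introns between -0.665 and -0.646.

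Signs on the log2 scale were compared for list medians given here and for named genes called in either fit. Under library size alone the sign turned for the ribosomal median (-0.61), the astrocyte median (-0.40), F3 (-0.69), Gapdh (-0.043) and Rplp0 (-0.016). On the reference genes it turned for the ribosomal median (-0.83), the astrocyte median (-0.62), F3 (-0.92), Gapdh (-0.26), Rplp0 (-0.24), Mmp2 (-0.90), Psmb5 (-0.80) and Psmb6 (-0.69). Medians of other lists turned too, such as that of Psmb5, Psmb6 and Psmb7, from 0.24 to -0.46 under library size alone. Replicate numbers are shared between the groups, but same-numbered libraries did not deviate together (correlations 0.0191, 0.0102 and -0.0105); with a replicate block 6277 genes were called (3634 higher, 2643 lower), 142 changed transcript usage, and it changed no call among the 221 genes given with a log2 fold change. Of those genes, 4 lost their call with DESeq2 (Aqp4, Cd3e, Ciita and Icam2) and 22 with the added limit; without a library 0 to 3 did, of the same genes. DESeq2 called 1 lymphocyte, 3 astrocyte and 4 adherens junction genes, against 3, 5 and 6. Depth limits genes with few fragments in a group, whose changes are given as bounds or values.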
